A study of Homo sapiens with 6 samples.

Results

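The genes described here encode receptor tyrosine kinases of the ERBB family (EGFR, ERBB2, ERBB3 and ERBB4), the receptors MET, RET and AXL, the ERBB ligands EGF and AREG, and the cytoplasmic kinase SRC. They were chosen by symbol, and all 10 were found among the 55765 gene symbols of the C4-2 count data. Of the 10, 6 passed the filter on low counts and were tested (EGFR, ERBB2, ERBB3, MET, EGF and SRC). ERBB4, AREG, RET and AXL did not, and they are described by their counts. C4-2 is a castration-resistant subline of the human prostate cancer (PCa) cell line LNCaP, and is here the only model. The cells grew in DMEM with fetal bovine serum and were treated for 72 h with the solvent DMSO (3 libraries) or with the synthetic androgen R1881 at 1 nM (3 libraries), a supraphysiological androgen level (SAL). The comparison asks which of these genes respond to SAL.

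Receptor tyrosine kinases of the ERBB family pair up when a ligand binds and then phosphorylate each other and their adaptors, which feeds the RAS-ERK and PI3K-AKT pathways. ERBB2 has no known direct ligand, and ERBB3 has a kinase domain of very low activity and signals mainly as the partner of another receptor, most often ERBB2. MET is the receptor of hepatocyte growth factor (HGF), and RET and AXL are the receptors of the GDNF family and of GAS6. In the normal prostate, EGFR and MET are known mostly from the basal epithelium, and ERBB receptors are studied in PCa as growth factor receptors.

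Promoter sequences are shown for MET, which was down-regulated, for EGFR, which had the highest level of the 10 genes, and for ERRFI1, an inhibitor of EGFR that had the largest increase among the genes that act on these receptors. Each is the 250 bases upstream of the RefSeq transcription start, 5′ to 3′ on the coding strand, placed by an exact match to GRCh37 (the assembly of hg19). Capitals mark the GC box GGGCGG or its complement CCGCCC, a sequence bound by Sp1 family factors. The MET window is chr7:116312000-116312249 on the plus strand, the EGFR window is chr7:55086460-55086709 on the plus strand, and the ERRFI1 window is chr1:8086370-8086619 on the minus strand.
MET: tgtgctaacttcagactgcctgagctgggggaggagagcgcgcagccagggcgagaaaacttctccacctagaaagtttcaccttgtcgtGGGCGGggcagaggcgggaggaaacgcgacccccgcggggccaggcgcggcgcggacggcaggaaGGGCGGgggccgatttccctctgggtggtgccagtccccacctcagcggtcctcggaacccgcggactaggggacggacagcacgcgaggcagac
EGFR: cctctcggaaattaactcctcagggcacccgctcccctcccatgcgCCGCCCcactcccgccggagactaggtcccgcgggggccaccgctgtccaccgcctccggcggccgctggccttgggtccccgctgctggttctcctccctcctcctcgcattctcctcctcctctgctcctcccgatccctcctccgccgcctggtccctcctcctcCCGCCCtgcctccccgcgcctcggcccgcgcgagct
ERRFI1: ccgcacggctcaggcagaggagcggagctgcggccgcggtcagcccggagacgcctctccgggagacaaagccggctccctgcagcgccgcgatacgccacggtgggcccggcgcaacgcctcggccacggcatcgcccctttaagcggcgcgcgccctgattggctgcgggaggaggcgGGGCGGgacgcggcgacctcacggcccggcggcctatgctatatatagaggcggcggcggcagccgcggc

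The MET window holds 2 GC boxes, both on the coding strand. EGFR also holds 2, both on the other strand, and ERRFI1 holds 1. Of 27305 RefSeq promoters (GRCh38.p14 table, the 250 upstream bases of each), 42.3% hold a GC box on either strand, so its presence does not set these genes apart. The androgen response half-site AGAACA, searched on both strands, is in 12.4% of the promoters and in none of the 3 windows. The full element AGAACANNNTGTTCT is in 0.00366% of the promoters and in none of the 3. Of the 10 genes, 8 had a promoter in the table, and ERBB3 and SRC did not.

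Between 6931042 and 8186483 reads per DMSO library and between 8112598 and 9776990 per SAL library were counted on genes after rRNA genes were removed. Levels are given as CPM, the counts scaled to a common library size after TMM normalization. The same-numbered libraries of the groups form pairs, so the test took the replicate number as a block. With this test, edgeR's quasi-likelihood test with Benjamini-Hochberg adjustment over 16835 genes, 11.5% of all genes were up-regulated by SAL and 9.37% were down-regulated (adjusted p under 0.05, the differentially expressed genes or DEGs). The luminal prostate marker KLK3 had at least 587 CPM in every library, and its log2 fold change was 1.21 ± 0.10 (standard error). The 6 immune markers summed to at most 0.802 CPM in any library, with PTPRC and CD3E at 0. The 7 fibroblast markers summed to between 2.56 and 12.4 CPM, with COL1A2 at 0, and the 6 basal markers, with KRT5 at 0, to between 93.6 and 163 CPM, nearly all from DST and ITGA6. The 4 endothelial markers found (PECAM1 is not among the symbols) summed to at most 3.95 CPM, mostly from VWF, with CDH5 at 0. A list of VIM, CAV1, CD44, S100A4, LGALS1 and KRT7, markers of less differentiated carcinoma lines, summed to between 12.3 and 29.8 CPM in DMSO and between 15.9 and 41.3 CPM in SAL, and CD44 was at 0.

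Of the 6 genes tested, ERBB3 was up-regulated by SAL and MET was down-regulated, while EGFR, ERBB2, EGF and SRC did not pass the test. ERBB3 rose 1.43-fold, and MET fell to 18.9% of its DMSO level from a level that was already low. Against the background of 11.5% up-regulated and 9.37% down-regulated genes, 1 of 6 in each direction (16.7%) is too small a number to set the group apart, and in either direction 20.8% of all genes were called. SAL was higher in all 3 pairs for 5 of the 6 genes (every one but MET), which held for 25.9% of all genes tested, and lower in all 3 for MET, which held for 25.3%. The median log2 fold change of the 6 genes was 0.20, and that of all genes tested was -0.0011. In RNA of a whole culture, a lower level in every cell and fewer cells with the transcript cannot be told apart.

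**Figure D1:**
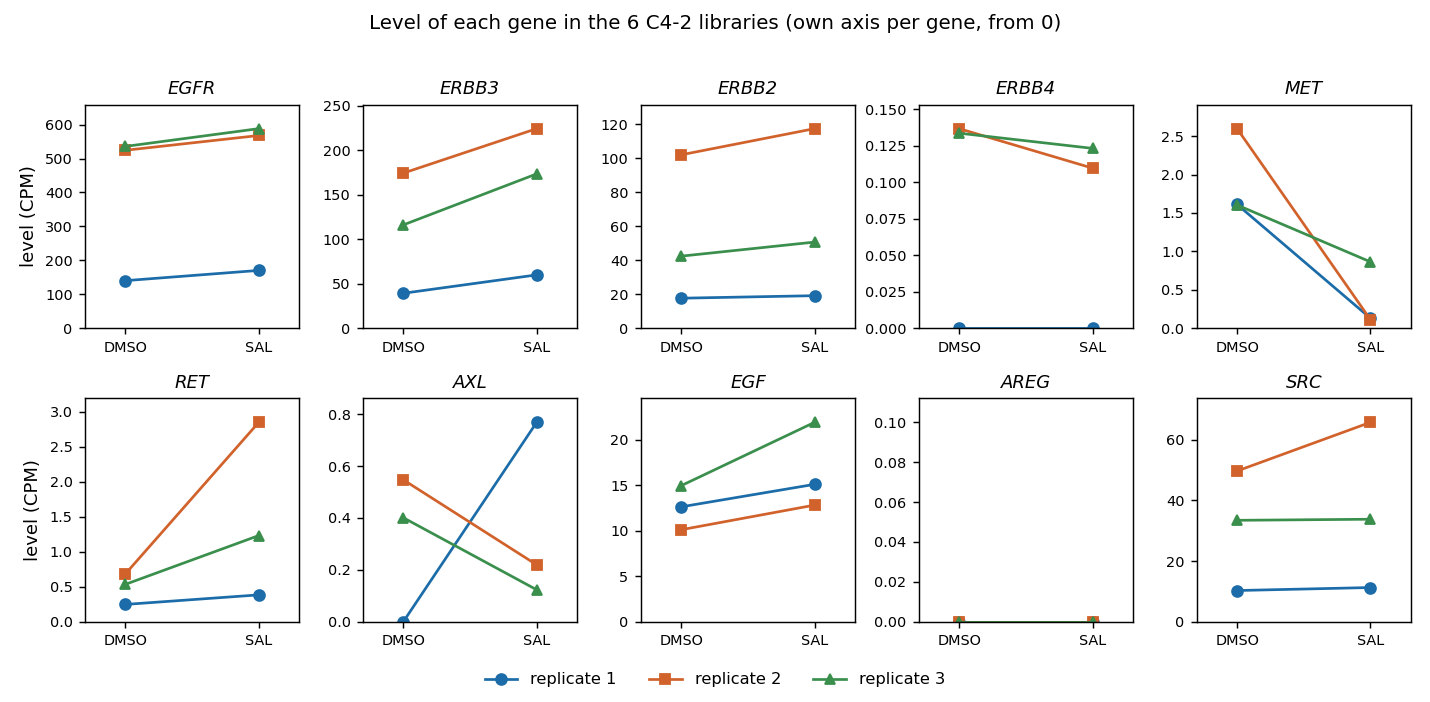
Level of each of the 10 genes in CPM (vertical axis, from 0 and separate for each gene) in DMSO and SAL, with a line joining the 2 libraries of each replicate number. EGFR, ERBB2, ERBB3 and SRC are lowest in replicate 1 in both groups, ERBB3 is higher in SAL in each pair, MET is lower in SAL in each pair, and AREG is at 0 in every library.

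EGFR, the receptor of EGF and of several other ligands (chromosome 7, 55086710 to 55279321 in GRCh37), had 140, 524 and 536 CPM in replicates 1, 2 and 3 of DMSO, against 170, 568 and 588 CPM in the SAL replicates. These levels rest on 1129 to 5179 counts per library. Their mean over the 6 libraries exceeds that of 98.5% of the genes tested, without regard to gene length. The groups overlapped, since both libraries of replicate 1 were far below the others, although SAL was higher in all 3 pairs. The log2 fold change was 0.18 (standard error 0.09, 95% interval -0.02 to 0.37, edgeR adjusted p = 0.200), so the increase was not past the threshold, and the interval leaves out a decrease by more than 0.02 or an increase by more than 0.37 on the log2 scale. EGFR-AS1, a noncoding gene on the other strand, shares 186 bases with the EGFR exons (1.17% of their length).

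ERBB2 (chromosome 17, 37844167 to 37886679) had 17.6, 102 and 42.4 CPM in the DMSO replicates and 19.1, 117 and 50.6 CPM in the SAL replicates. The libraries of replicate 2 were the highest and those of replicate 1 the lowest in both groups, so that the groups overlapped over most of their range. The log2 fold change was 0.20 (standard error 0.10, 95% interval -0.02 to 0.42, edgeR adjusted p = 0.197), with 0.12, 0.20 and 0.26 in the 3 pairs. The exons of MIEN1 and PGAP3 on the other strand overlap 5.53% and 1.40% of the exon length of ERBB2, and the counting did not use strand.

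ERBB3, the main signalling partner of ERBB2 (chromosome 12, 56470583 to 56497289), had 39.2, 174 and 116 CPM in replicates 1, 2 and 3 of DMSO, against 59.8, 224 and 173 CPM in the SAL replicates. The groups overlapped because the replicates lay far apart, but SAL was higher in every pair, by 0.61, 0.36 and 0.58 on the log2 scale. The log2 fold change was 0.51 (standard error 0.10, 95% interval 0.31 to 0.72, edgeR adjusted p = 0.00135). Without replicate 3, the log2 fold change was 0.48 and the adjusted p was 0.11, so the call rests on that pair being included. With DESeq2 and the same block the adjusted p was 0.00176.

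The ratio of ERBB3 to its relatives within a library does not depend on how the libraries are scaled. There were 0.449, 0.586 and 0.365 ERBB2 counts for each ERBB3 count in replicates 1, 2 and 3 of DMSO, against 0.319, 0.524 and 0.292 in the SAL replicates. The ratio was lower in SAL in all 3 pairs, by a mean of 0.33 on the log2 scale (SD 0.17, n = 3; two-sided exact sign-flip permutation test, p = 0.25, the smallest p that 3 pairs allow). For EGFR, there were 3.57, 3.01 and 4.62 counts for each ERBB3 count in DMSO, and 2.84, 2.53 and 3.39 in SAL. This ratio was also lower in every pair (mean log2 difference -0.34, SD 0.10, n = 3; the same exact test, p = 0.25). Against SRC, the mean log2 shift of ERBB3 was of like size, 0.33, but it varied more between pairs (SD 0.33, n = 3). Against EGF, the mean shift was smaller, 0.13 (SD 0.19, n = 3). The log2 ratio of ERBB3 to SRC changed by 0.48, -0.04 and 0.56 in the 3 pairs, which is in both directions. That of ERBB3 to EGF changed by 0.35, 0.02 and 0.03. The log2 ratio of EGFR to ERBB2 differed between SAL and DMSO by 0.16, -0.09 and -0.12 in the 3 pairs, which is in both directions. A total of 10 such ratios among EGFR, ERBB2, ERBB3, SRC and EGF were computed, and with 3 pairs none could pass a threshold of 0.05.

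ERBB4, the other neuregulin receptor of the family, had no count in replicate 1 and 1 count in each of the other 4 libraries, a total of 2 in DMSO and 2 in SAL. At this depth no difference was detectable, with a ratio of SAL to DMSO of 0.913 and an exact 95% counting interval of 0.0662 to 12.6.

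MET, the HGF receptor (chromosome 7, 116312250 to 116438431), was counted 13, 19 and 12 times in replicates 1, 2 and 3 of DMSO, against 1, 1 and 7 times in SAL, or 1.61, 2.60 and 1.60 CPM against 0.128, 0.11 and 0.862 CPM. The groups did not overlap, with the SAL values lower. An exact two-sided permutation of the 6 libraries that ignored the pairs gave p = 0.1, the smallest p that this unpaired test allows. Of all genes tested, 3.73% had an SAL group entirely below the DMSO group (7.51% did not overlap in either direction). The log2 fold change was -2.41 (standard error 0.62, 95% interval -3.74 to -1.08, edgeR adjusted p = 0.0124). From the summed counts of 44 in DMSO and 9 in SAL, the ratio was 0.187, with an exact 95% counting interval of 0.0802 to 0.388 that covers counting error only. The size of the fall depended on the pair, with log2 differences of -2.30, -2.98 and -0.74. These use a prior count of 2, which makes changes at such low counts smaller. Without replicate 2 the log2 fold change was -1.71 (edgeR adjusted p = 0.104), and without replicate 3 it was -4.0 (adjusted p = 0.00578). MET lay in the lowest 1.26% of the genes tested by mean level, and it passed the filter through its DMSO counts.

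RET, the receptor of the GDNF family (chromosome 10, 43572512 to 43625799), had 2, 5 and 4 counts in the DMSO replicates and 3, 26 and 10 in the SAL replicates. SAL was higher in every pair, but the SAL library of replicate 1 lay within the DMSO range and replicate 2 gave most of the SAL counts. The summed counts of 11 and 39 gave a ratio of 3.24 with an exact 95% counting interval of 1.63 to 7.01, which leaves out the spread between replicates. RET was too low for the main test. When all genes with a count were tested, its log2 fold change was 1.52 (standard error 0.60, edgeR adjusted p = 0.0822). Its GDNF family coreceptors GFRA1 and GFRA2 had at most 1 count per library, GFRA3 at most 5, and GFRA4 none.

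AXL, a receptor of GAS6 (chromosome 19, 41725128 to 41767671), had 0, 4 and 3 counts in the DMSO replicates and 6, 2 and 1 in the SAL replicates. The pairs moved in both directions, and the ratio of the summed counts (7 and 9) was 1.17, with an exact 95% counting interval of 0.389 to 3.71, so no difference was detectable at this depth.

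EGF, the founding ligand of the family (chromosome 4, 110834039 to 110934922), had 12.6, 10.1 and 15.0 CPM in replicates 1, 2 and 3 of DMSO, against 15.1, 12.8 and 21.9 CPM in the SAL replicates. SAL was higher in all 3 pairs, by 0.25, 0.33 and 0.54 on the log2 scale, and the groups overlapped. The log2 fold change was 0.39 (standard error 0.16, 95% interval 0.05 to 0.73), and its edgeR adjusted p of 0.0986 was not past the threshold. AREG, which encodes amphiregulin, was at 0 in all 6 libraries. This value cannot be read as absence. Of the 50-base windows of the AREG exons, 97.6% occur a second time on chromosome 4 of GRCh37, and reads that map to more than 1 place were not counted. The symbol of the copy, AREGB, was also at 0 in every library.

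SRC, the kinase that acts downstream of these receptors (chromosome 20, 35973088 to 36034453), had 10.3, 49.6 and 33.4 CPM in the DMSO replicates and 11.3, 65.7 and 33.8 CPM in the SAL replicates. The groups overlapped over nearly their whole range. The log2 fold change was 0.20 (standard error 0.13, 95% interval -0.07 to 0.47, edgeR adjusted p = 0.297), with 0.13, 0.40 and 0.02 in the 3 pairs.

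Levels were set against each other per kilobase of annotated exon. In DMSO, EGFR had 25.1 ± 14.1 CPM per kilobase (SD, n = 3), ERBB3 9.37 ± 5.78, ERBB2 5.23 ± 4.2, SRC 4.36 ± 2.77, EGF 1.65 ± 0.32 and MET 0.268 ± 0.079. AXL had 0.0615 ± 0.055, RET 0.0545 ± 0.025 and ERBB4 0.00693 ± 0.0060 CPM per kilobase. Within each of the 6 libraries EGFR was above ERBB3, and ERBB3 was above ERBB2. Between libraries the ranges of EGFR and ERBB3 overlapped, as did those of ERBB3 and ERBB2, while ERBB2 (at least 1.71 CPM per kilobase in any library) lay above MET (at most 0.360) throughout. SRC was not separated from ERBB2, above which it lay in DMSO replicate 3, or from EGF, which was the higher of the pair in both libraries of replicate 1. MET was above RET and AXL in each DMSO library, but in SAL its mean of 0.0508 ± 0.059 was below that of RET, 0.166 ± 0.140, with overlapping ranges.

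The spread between replicate numbers was larger than the differences between DMSO and SAL for EGFR, ERBB2, ERBB3 and SRC. In replicate 1, EGFR was 3.78-fold below the mean of replicates 2 and 3 in DMSO and 3.39-fold below it in SAL. The differences were 3.70-fold and 4.0-fold for ERBB2, 3.62-fold and 3.29-fold for ERBB3, and 3.89-fold and 4.11-fold for SRC. For EGF they were 0.98-fold and 1.11-fold, and for MET 1.25-fold and 1.57-fold. Only between 4.41% and 6.05% of the genes tested lay lower in DMSO replicate 1 by this measure than EGFR, ERBB2, ERBB3 or SRC. The libraries of replicate 1 also differed in composition. Among genes with 56.9% to 86.4% GC in their exons, the highest of 5 groups of like size, the median gene was lower in replicate 1 by 1.17 in DMSO and by 1.28 in SAL on the log2 scale, and among genes with 21.1% to 40.6% GC it was higher by 0.51 and 0.66. ERBB2 and SRC, with 57.6% and 59.3% GC, are in the highest group. EGFR, with 46.7%, is in the middle group, whose median genes were lower by 0.23 and 0.18. The share of rRNA counts was 27.7% and 27.8% in the libraries of replicate 1 and between 11.9% and 22.0% in the others. The part of GC content or rRNA in these differences was not tested. With a GC correction fitted together with the replicate block, chosen after the data were seen, ERBB3 had a log2 fold change of 0.49 (edgeR adjusted p = 0.000779) and MET of -2.39 (adjusted p = 0.00991), and EGFR, ERBB2, EGF and SRC were not called. For ERBB2 and SRC the log2 fold changes were then 0.12 and 0.10.

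**Figure D2:**
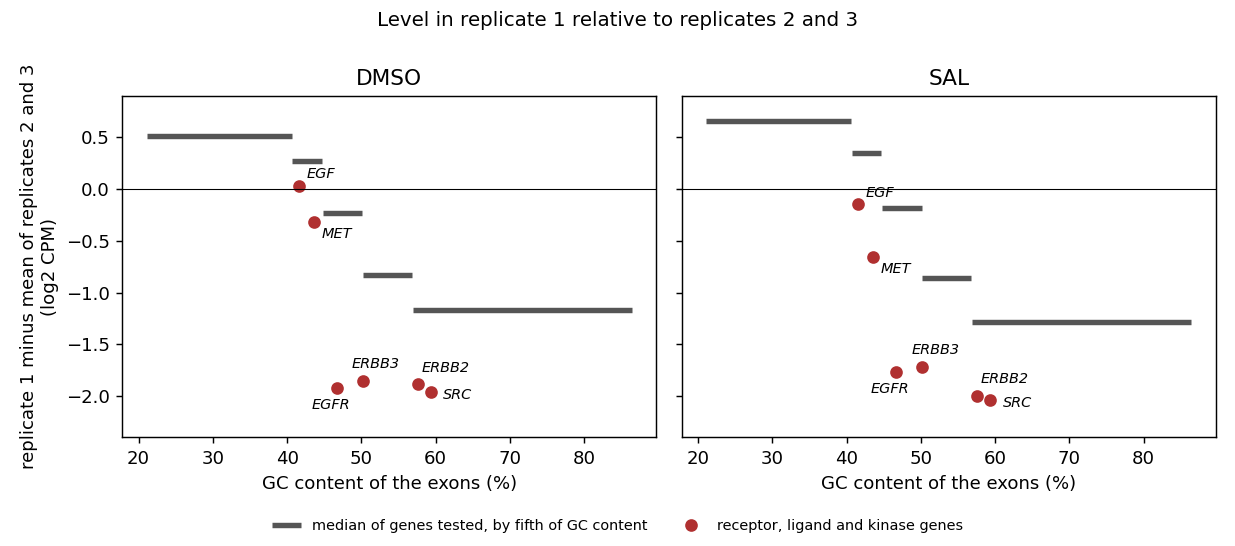
Difference in level between replicate 1 and the mean of replicates 2 and 3 (vertical axis, log2 CPM) against the GC content of the exons (horizontal axis, %), in DMSO (left) and SAL (right). Grey bars are medians of the genes tested in 5 groups by GC content and red points are the 6 genes tested here; EGFR, ERBB2, ERBB3 and SRC lie between -1.85 and -1.96 in DMSO, below the median of their group.

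Genes that act with these receptors were taken from 10 lists (93 genes, of which 65 were tested). Of the 65, 15 were up-regulated (23.1%, against 11.5% of all genes tested) and 6 were down-regulated (9.23%, against 9.37%), and 44 did not pass the test. Their median log2 fold change was 0.10. The lists were chosen with earlier results of these data known, and they include TMPRSS2, an androgen-induced gene. The share of up-regulated genes therefore cannot be read as a result about the lists, and the same holds for the counts of each list below. The largest log2 fold change among the 65 was that of ERRFI1, and called genes of its list, the negative regulators, went in both directions.

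Among 18 negative regulators, 15 were tested, of which 3 were up-regulated, 2 were down-regulated and 10 were not called. ERRFI1 (also named MIG6), which binds and blocks the kinase domain of ERBB receptors, rose 7.13-fold. It had 25.6, 20.4 and 25.4 CPM in the DMSO replicates and 141, 183 and 188 CPM in the SAL replicates, so the groups lay far apart, and 3.78% of all genes tested had SAL groups that lay entirely above the DMSO group. Its log2 fold change was 2.83 (standard error 0.13, edgeR adjusted p = 1.65e-09), between 2.66 and 3.02 with each replicate number left out. LRIG1, a membrane protein that promotes the degradation of ERBB receptors and MET, rose 3.09-fold. Its levels were 25.5, 112 and 66.0 CPM in the DMSO replicates and 67.2, 364 and 221 CPM in the SAL replicates, so the groups overlapped between replicates, and each pair rose by 1.39, 1.69 and 1.74 (log2 fold change 1.63, standard error 0.10, edgeR adjusted p = 2.23e-08). In the newer annotation used for positions, the exons of SLC25A26 on the other strand overlap 37.9% of the LRIG1 exon length, and SLC25A26 itself had 124 to 194 counts per library.

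LRIG3, a relative of LRIG1, fell to 58.3% of its DMSO level, with at least 19.4 CPM in each DMSO library and at most 14.7 CPM in each SAL library (log2 fold change -0.78, standard error 0.15, edgeR adjusted p = 0.00138). SPRY1, an inhibitor of RAS-ERK signalling downstream of receptor kinases, fell to 53.5% (log2 fold change -0.90, standard error 0.14, edgeR adjusted p = 0.000213). DUSP4, a phosphatase of ERK, rose by 0.43 on the log2 scale (edgeR adjusted p = 0.00863), but it was not called without replicate 2 or without replicate 3 (adjusted p = 0.121 and 0.114) or with DESeq2 (adjusted p = 0.0522). LRIG2, the ubiquitin ligases CBL, CBLB and CBLC, and RNF41, a ubiquitin ligase of ERBB3, were not called, with log2 fold changes between -0.12 and 0.25. Without replicate 1, RNF41 was called (log2 fold change 0.35, edgeR adjusted p = 0.00694). It was not without replicate 2 or without replicate 3 (adjusted p = 0.477 and 0.514). DUSP6 and SPRY4, known as targets of ERK signalling, had at most 11 and 6 counts per library and were not tested.

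**Figure D3:**
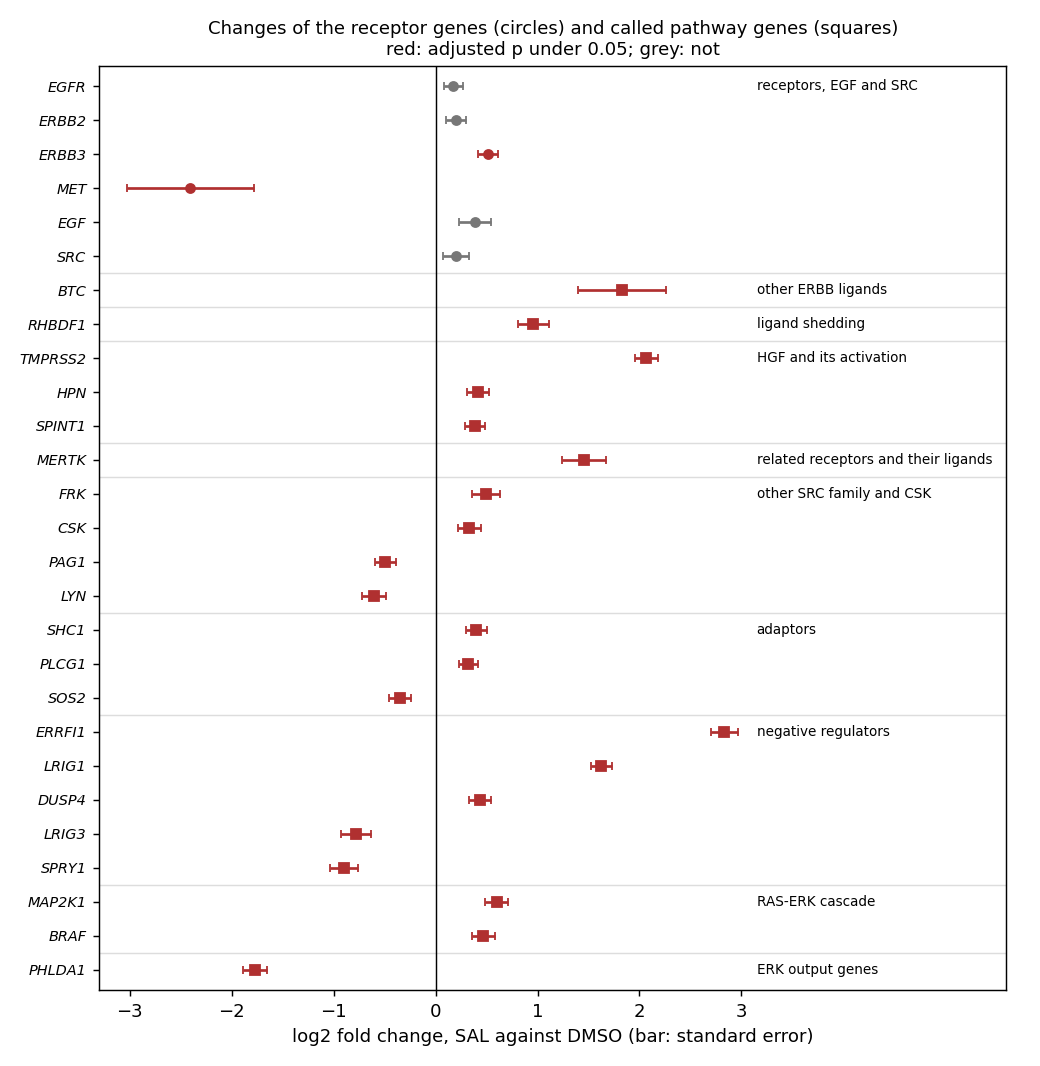
Log2 fold change between SAL and DMSO (horizontal axis, bars are standard errors) of the 6 genes tested (circles) and of the called genes of the 10 lists (squares, grouped by list), red where the adjusted p is under 0.05. ERRFI1 lies at 2.83 and MET at -2.41, while EGFR, ERBB2 and SRC lie between 0.18 and 0.20.

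Of the 9 other ERBB ligands, 4 were tested, and BTC, which encodes betacellulin, a ligand of EGFR and ERBB4, was up-regulated 3.55-fold. It was counted 6, 9 and 3 times in replicates 1, 2 and 3 of DMSO, and 35, 23 and 13 times in those of SAL, with no overlap in CPM. Its log2 fold change was 1.83 (standard error 0.43, edgeR adjusted p = 0.00659), and without replicate 1 it was 1.35 (adjusted p = 0.0564). BTC passed the filter through its SAL counts, and it was not tested where at least 10 counts in every library were asked for. TGFA, HBEGF and NRG4 were not called, with log2 fold changes of -0.69, -0.11 and 0.10. Without replicate 1, TGFA was called (log2 fold change -0.96, edgeR adjusted p = 0.0253). It was not without replicate 2 or without replicate 3 (adjusted p = 0.389 and 0.504). EREG, EPGN and NRG1 were at 0 in every library, which allows up to 0.0626 CPM over the 6 libraries together (3 counts of the total, counting error only). Of 4 genes of ligand shedding, RHBDF1, a partner of the sheddase ADAM17, was up-regulated, from 11.4 ± 5.24 to 22.1 ± 9.52 CPM (SD, n = 3; log2 fold change 0.96, standard error 0.15, edgeR adjusted p = 0.000278). ADAM10, ADAM17 and RHBDF2 were not called, with log2 fold changes of 0.10, 0.06 and -0.11.

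HGF, the ligand of MET, was at 0 in every library. Of the 7 genes of HGF and its activation 5 were tested, and 3 were up-regulated, against 11.5% of all genes tested. The list was chosen with earlier results known, so this count cannot be read as a result about it. TMPRSS2, an androgen-induced gene and one of the membrane proteases known to cleave pro-HGF, rose 4.19-fold (log2 fold change 2.07, standard error 0.11, edgeR adjusted p = 9.14e-09). The protease HPN (hepsin) and the protease inhibitor SPINT1 rose by 0.42 and 0.38 on the log2 scale (edgeR adjusted p = 0.0103 for each). HPN was not called without replicate 2 or without replicate 3 (adjusted p = 0.050 and 0.246), and neither was SPINT1 (adjusted p = 0.0773 and 0.225). With DESeq2 and the same block, HPN was not called (adjusted p = 0.0649), while SPINT1 was (adjusted p = 0.0371).

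MERTK, a relative of AXL that also binds GAS6, rose 2.74-fold, while AXL was barely detected in either group. MERTK had 6.19, 13.8 and 8.55 CPM in the DMSO replicates and 22.4, 23.0 and 31.5 CPM in the SAL replicates, with no overlap between the groups (log2 fold change 1.45, standard error 0.22, edgeR adjusted p = 0.000502). TYRO3, the other member of that family, was not called, with a mean of 18.0 ± 12.3 CPM (SD, n = 3) for DMSO and 17.9 ± 12.4 for SAL. Its ligands GAS6 and PROS1 had log2 fold changes of -0.32 (edgeR adjusted p = 0.405) and 0.71 (adjusted p = 0.0534). Without replicate 1, both were called, at -0.64 and 0.87 (edgeR adjusted p = 0.0145 and 0.0474). Neither was called without replicate 2 (adjusted p = 0.747 and 0.117) or without replicate 3 (adjusted p = 0.960 and 0.393). MST1R, the closest relative of MET, had at most 3 counts per library. Of the 8 genes of RET ligands and coreceptors, 2 were tested, ARTN and PSPN, and neither was called. Without replicate 1, ARTN was called with a log2 fold change of 0.91 (edgeR adjusted p = 0.0339), and without replicate 2 its log2 fold change was -0.18 (adjusted p = 0.800). GDNF, the ligand that gives the family its name, was too low for the main test, with 10, 15 and 9 counts in DMSO and 1, 1 and 10 in SAL, so replicate 3 did not share the lower SAL counts. When all genes with a count were tested, it was called with a log2 fold change of -1.71 (edgeR adjusted p = 0.0360), and with rRNA genes kept it was not called (adjusted p = 0.102).

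**Figure D4:**
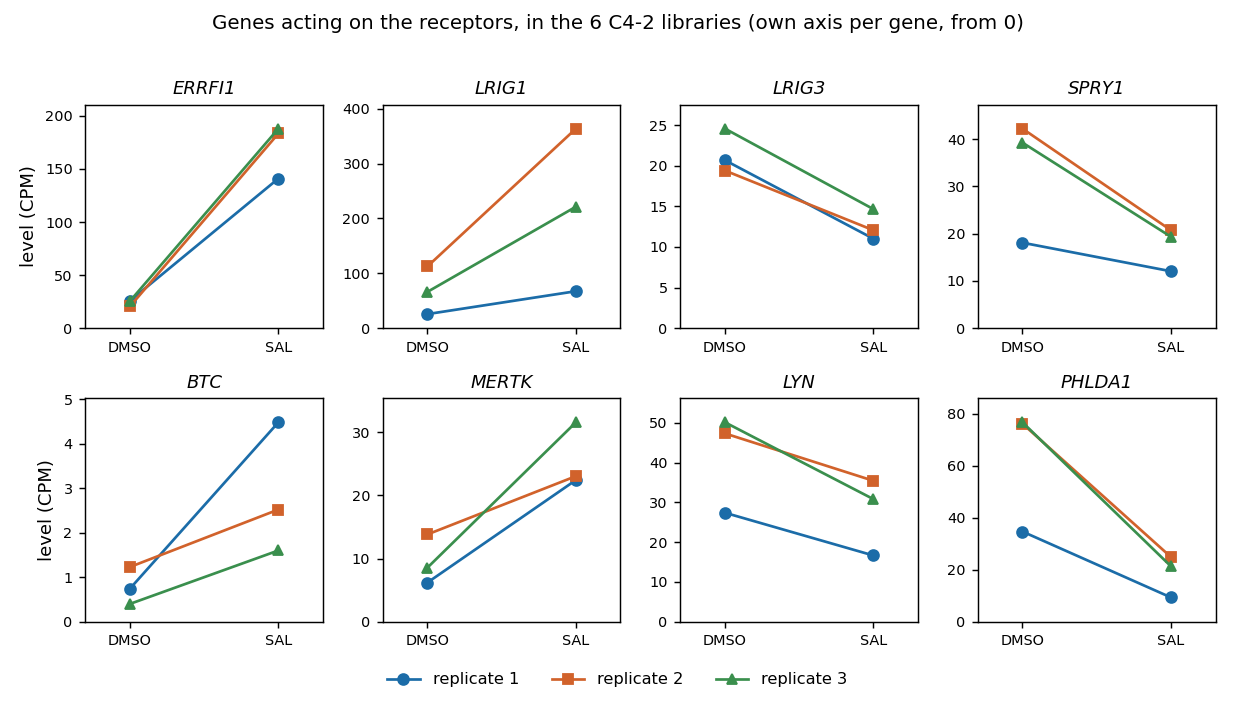
Level in CPM (vertical axis, from 0 and separate for each gene) of 8 genes that act on or with the receptors, in DMSO and SAL, with a line joining the 2 libraries of each replicate number. ERRFI1, LRIG1, BTC and MERTK are higher in SAL in every pair and LRIG3, SPRY1, LYN and PHLDA1 are lower in every pair.

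Of the 10 other genes of the SRC family and its control, 6 were tested, 2 were up-regulated and 2 were down-regulated. Of all genes tested, 11.5% were up-regulated and 9.37% down-regulated. The kinase LYN fell to 65.8% of its DMSO level (log2 fold change -0.60, standard error 0.12, edgeR adjusted p = 0.00181), and PAG1, the membrane anchor of the SRC inhibitor CSK, fell to 71.0% (log2 fold change -0.49, edgeR adjusted p = 0.00262). Both were lower in all 3 pairs, and neither was called without replicate 3 (adjusted p = 0.0876 and 0.135). The related kinase FRK rose by 0.49 on the log2 scale (edgeR adjusted p = 0.0182, and 0.232 without replicate 3). CSK rose by 0.33 (edgeR adjusted p = 0.0439), and was not called with any replicate number left out (adjusted p between 0.0825 and 0.240). With DESeq2 and the same block, neither FRK nor CSK was called (adjusted p = 0.107 and 0.182).

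All 11 adaptors were tested, 2 were up-regulated and 1 was down-regulated. SHC1, an adaptor of activated receptors, and PLCG1, a phospholipase bound by them, rose by 0.40 and 0.32 on the log2 scale (edgeR adjusted p = 0.00987 and 0.0268). The RAS activator SOS2 fell by 0.35 (edgeR adjusted p = 0.0360). Without replicate 3, none of these was called (adjusted p between 0.233 and 0.265), and without replicate 2, PLCG1 and SOS2 were not (adjusted p = 0.0711 and 0.170). With DESeq2 and the same block, SHC1, PLCG1 and SOS2 were not called (adjusted p = 0.0534, 0.128 and 0.124). GRB7, which neighbours ERBB2 on chromosome 17, was not called, with a log2 fold change of -0.40 (adjusted p = 0.369).

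In the RAS-ERK cascade, all 10 genes were tested and 2 were up-regulated, MAP2K1 (MEK1) by 0.60 on the log2 scale (edgeR adjusted p = 0.00125) and BRAF by 0.47 (adjusted p = 0.00837, and 0.156 without replicate 3). In the annotation used for positions, a noncoding gene on the opposite strand overlaps 20.5% of the exon length of MAP2K1. Of the 10 ERK output genes 7 were too low to be tested, FOS and EGR1 among them with at most 6 counts each per library. PHLDA1, which is induced by ERK signalling, fell to 29.3% of its DMSO level, from 34.7, 76.2 and 76.7 CPM to 9.35, 24.9 and 21.3 CPM in replicates 1, 2 and 3, with no overlap (log2 fold change -1.77, standard error 0.12, edgeR adjusted p = 3.89e-08). CCND1 and EPHA2 were not called, with log2 fold changes of 0.16 and -0.50.

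Over the 6 libraries, the genes of at least 5 mean CPM with the log2 level most like that of ERBB3 were ANO10, LDLRAD3 and DVL2 (Pearson's r of 0.9995, 0.9993 and 0.999), of which LDLRAD3 and DVL2 were also up-regulated. For MET they were PIF1, NCLP1 and ANO6 (r of 0.994, 0.989 and 0.967), of which PIF1 and NCLP1 were also down-regulated. These values describe 6 libraries in 3 pairs that share the differences between replicate numbers. The like genes were picked by their correlation over the same DMSO and SAL libraries. A shared direction under SAL is therefore favoured by the choice and is not a separate result. For MET the correlation also rests on 1 to 19 counts per library.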

How the data were processed

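RNA-seq counts of 6 C4-2 libraries were analysed. The authors mapped trimmed first reads to hg19 (tophat 2.1.0) and counted them per gencode v19 gene symbol (htseq-count 0.11.2). The deposited values are whole-number counts, without normalization. Although the kit keeps strand, the counting ignored it, so reads of overlapping genes on opposite strands cannot be told apart. Reads tallied as ambiguous between annotated genes (1.25% to 1.9% per library) were counted for no gene. Reads with several map positions were not counted. Groups and replicate numbers were taken from the labels.

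As in the study's methods, rRNA genes (523 symbols) were left out. Genes were filtered with filterByExpr, scaled with TMM and tested with the quasi-likelihood method of edgeR 4.0.16 (R 4.3.3), and replicate number entered as a block, since the study states a paired test. Same-numbered libraries deviated together from their groups (Pearson's r of 0.886, 0.856 and 0.739 over genes). Each standard error is the size of the log2 fold change over the root of its F statistic, and changes per pair use a prior count of 2. DESeq2 1.42.0, other filters and scalings, and leaving out each replicate were alternatives. On simulated data with 16835 genes, 81.0% of 2-fold changes were called, and 4.52% of the calls were unchanged genes. In the simulation only 200 genes were changed, and the spread of each gene followed the trend over level. The data had 3508 DEGs and a spread that differs from gene to gene, so these shares need not hold for them.

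The genes and lists were chosen with earlier results of these data known. The text names all 10 genes, called list genes (up to 4 per list and direction, by adjusted p), undetected ligands, and the 3 genes most like each called gene. Uncalled list genes and marker genes were chosen for naming with their values known. Positions, exon lengths and GC content come from GENCODE v44 lifted to GRCh37, and 84.2% of the genes tested had a GC value. LNCaP libraries were not analysed here, and some marker genes are not reported here.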

Additional observations from a re-analysis of the deposited data

How the results depend on the processing

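The replicate block decided most calls. Without it, 21 genes were DEGs in place of 3508 (654 had an unadjusted p under 0.05), and among the receptor genes 0 were up-regulated and 0 down-regulated, with 1 of the 6 at an unadjusted p under 0.05. In the lists of related genes, 1 was up-regulated (ERRFI1) and 0 were down-regulated. Without the block, ERBB3 had a log2 fold change of 0.47 (edgeR adjusted p = 1.00) and MET of -2.37 (adjusted p = 0.647). With DESeq2 and the block there were 2240 DEGs and 9 up-regulated genes in the lists. An adjusted p under 0.01 left 2110 DEGs and 0 down-regulated receptor genes, and a log2 fold change of at least 1 left 886 DEGs, 0 up-regulated receptor genes, and 5 up-regulated and 1 down-regulated gene in the lists. With at least 10 counts in every library, MET was not tested and 0 receptor genes were down-regulated.

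With each replicate number left out, which removes a pair, there were 1233 to 4398 DEGs, 0 to 1 up-regulated and 0 to 1 down-regulated receptor genes, and 7 to 19 up-regulated and 3 to 11 down-regulated genes in the lists. The lowest counts of DEGs and of list genes, and the loss of ERBB3, came without replicate 3, and the loss of MET without replicate 2. The highest counts came without replicate 1. Under DESeq2 size factors, rRNA genes kept, mitochondrial genes removed, no filter and the GC correction, ERBB3 and MET were called in the same direction. No setting turned the direction of any of the 6 genes tested. Of the 4 untested genes, ERBB4, RET and AXL are limited by depth, with at most 26 counts in any library, and AREG by its repeated sequence.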
